A study of Mus musculus with 2 samples.

Results

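The 10 circadian clock genes Arntl, Clock, Per1, Per2, Per3, Cry1, Cry2, Nr1d1, Nr1d2 and Dbp were examined in mammary epithelial cells (MECs) of lactating wild type (WT) and Igfbp7-/- mice. They were taken from the 25810 genes with a symbol in both libraries by matching these symbols, and all 10 were present. Poly(A) RNA was sequenced from inguinal glands at lactation day 3, in 1 library from WT mice and 1 library from mice that lack the first exon of Igfbp7, which encodes a secreted IGF binding protein, in all tissues. Both groups were nursing females, and single-cell suspensions of both were depleted of CD45, CD31 and Ter119 positive cells (leukocytes, endothelial cells and erythroid cells, respectively) before RNA extraction; the labels name CD35 in place of CD31. The labels give the strain as C57BL/6, whereas the methods describe knockout mice made on the CD1 background, and neither source states the age of the mice, the number of animals behind a library, or whether the litters that these females nursed were of one size. The sources also do not state the time of day at which the glands were collected, so a difference in collection time and the genotype cannot be told apart. With 1 library per genotype there were no replicates, and the differences between them were not tested. The intervals given below are 95% Clopper-Pearson intervals on read pairs, and they cover counting error only.

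In most cells of the body the clock is a transcriptional feedback loop. The proteins of Arntl (BMAL1) and Clock bind together to E-boxes and activate the Per and Cry genes, whose products then block the same activators. A second loop runs through Nr1d1 and Nr1d2, which encode the nuclear receptors REV-ERB alpha and beta. They are induced by the activators and repress Arntl through response elements that they share with the ROR receptors. Dbp, a transcription factor of the PAR bZIP family that binds D-boxes, is a direct and strongly rhythmic output of the activators. In mouse peripheral tissues the transcripts of Arntl, Clock and Npas2 peak at about the opposite time of day to those of Nr1d1, Dbp and the Per genes, and the mammary gland is known to hold such a clock.

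The libraries had 34327854 mapped reads in WT and 35016847 in Igfbp7-/-, of which 82.37% and 72.32% fell on listed genes. At this depth 3 reads, taken as the detection limit, were worth 0.0874 and 0.0857 RPM (reads of a gene in every 1000000 mapped reads). Igfbp7 had 5224 reads in WT and 37 in Igfbp7-/-; the lower value was in the library labelled as the knockout. The luminal and alveolar markers Krt8, Krt18 and Krt19 were higher in Igfbp7-/- by at least 1.5 times, and the milk protein genes Csn2 and Wap were lower. Epcam (338 and 482 RPM) and Elf5 (137 and 95.9 RPM), also on that list, stayed within 1.5 times. The summed RPM of the 7 genes of that list was 67918 in WT and 26668 in Igfbp7-/-. Csn2 (53087 and 19970 RPM) and Wap (13731 and 3866 RPM) made up nearly all of this sum, so its fall was that of milk protein RNA. Of the 7 genes, 4 had a ratio of Igfbp7-/- to WT above 1. Of all 14026 genes with at least 1 RPM in either library, 7244 had such a ratio. By at least 1.5 times, 23.0% of them were lower and 21.4% higher. Of the other marker lists, 4 of 5 myoepithelial, 3 of 5 fibroblast, 4 of 4 endothelial, 5 of 5 leukocyte, 3 of 3 adipocyte (of 4 listed) and 0 of 3 erythroid genes were lower, and none was higher. The summed RPM of these lists went from 2876 to 941 for myoepithelial, 8658 to 4498 for fibroblast, 1023 to 324 for endothelial, 116 to 48.3 for leukocyte and 559 to 176 for adipocyte genes, while the erythroid sum was 889 and 997. Fabp4 was nearly all of the adipocyte sum (543 and 173 RPM), and Col3a1 the largest part of the fibroblast sum (4670 and 1950 RPM). No marker was at 0 in either library. In these bulk samples fewer cells of a type and less RNA per cell cannot be told apart, and the part of cell makeup in the clock values was not tested.

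Of the 10 clock genes, Per1 was at least 1.5 times as high in Igfbp7-/- MECs as in WT MECs, Nr1d1 and Dbp were lower by at least as much, and 7 stayed within that range. All 10 reached 1 RPM in at least one library, as did 14026 genes in all. Of those genes 21.4% were higher and 23.0% were lower by the same rule, so the members' counts of 1 and 2 in 10 were not above the background. On the log2 scale the ratio of Igfbp7-/- to WT had a median of 0.05 over the members and of 0.035 over all genes tested. Of all genes past 1.5 times, 48.2% were the higher ones; this share was 62.2% when RPM was taken per read on listed genes and 37.4% when the 20 most abundant genes were left out. When the whole counting interval had to lie beyond 1.5 times, Per1 was still higher and Nr1d1 still lower, but Dbp no longer counted. By that rule 11.2% of all genes were higher and 14.7% were lower. The summed RPM of the 10 genes was 438 in WT and 479 in Igfbp7-/-.

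**Figure D1:**
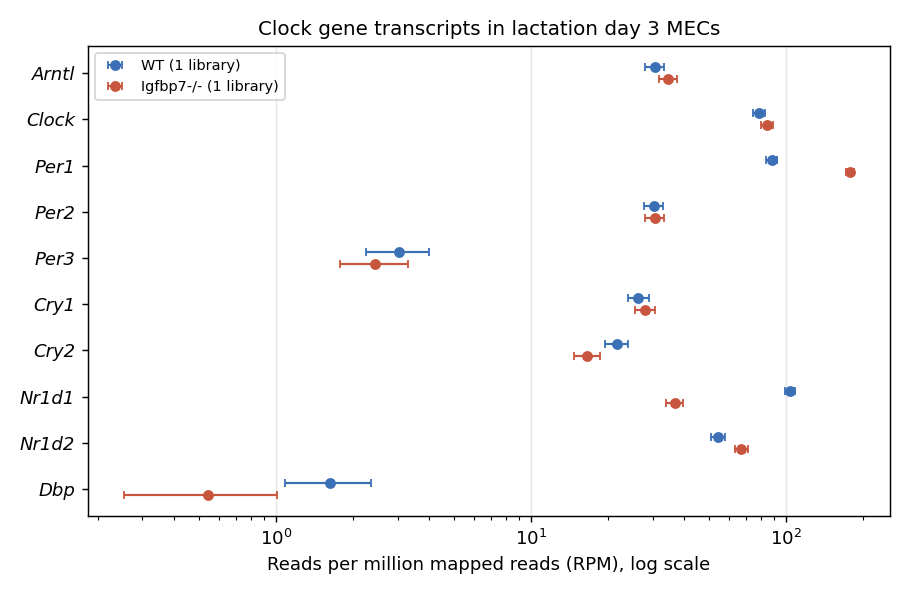
RPM of each clock gene (log scale) in the WT and the Igfbp7-/- library, with 95% counting intervals as bars. The intervals of the 2 libraries lie far apart for Per1 and Nr1d1, are wide for Per3 and Dbp, which rested on at most 104 reads, and overlap for Arntl, Clock, Per2, Per3 and Cry1.

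The 3 genes past 1.5 times are given by the 250 bases before their annotated start, from RefSeq (GRCm38.p6), 5′ to 3′ on the gene's strand, to let their promoters be compared. Capitals mark a match to the E-box CACGTG. The Per1 window is the more upstream of its 2 starts, at chr11:69098699-69098948 on the plus strand. The Nr1d1 window lies at chr11:98775378-98775627 on the minus strand, and that of Dbp at chr7:45704997-45705246 on the plus strand.
Per1: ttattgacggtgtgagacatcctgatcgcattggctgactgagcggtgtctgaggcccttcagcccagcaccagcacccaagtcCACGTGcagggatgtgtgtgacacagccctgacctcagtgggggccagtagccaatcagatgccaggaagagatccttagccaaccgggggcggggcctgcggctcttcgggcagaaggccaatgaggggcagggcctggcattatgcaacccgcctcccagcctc
Nr1d1: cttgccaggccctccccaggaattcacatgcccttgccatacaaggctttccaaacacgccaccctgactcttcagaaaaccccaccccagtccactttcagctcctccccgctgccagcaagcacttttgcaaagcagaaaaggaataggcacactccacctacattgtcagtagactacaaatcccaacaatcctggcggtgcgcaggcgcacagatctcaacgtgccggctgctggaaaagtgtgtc
Dbp: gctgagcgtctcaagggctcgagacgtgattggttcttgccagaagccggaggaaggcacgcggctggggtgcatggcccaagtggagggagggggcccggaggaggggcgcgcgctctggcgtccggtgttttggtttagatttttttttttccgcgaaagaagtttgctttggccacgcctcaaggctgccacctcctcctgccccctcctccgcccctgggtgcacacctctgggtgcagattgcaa

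Windows of 300 bases, which also hold the first 50 bases of the transcript, were searched on both strands for the E-box CACGTG, the D-boxes TTATGTAA and TTACGTAA, the cAMP response element TGACGTCA, and the ROR/REV-ERB response element. The reference gave 13 such windows for 9 of the 10 genes, all but Per2, with 2 starts each for Arntl and Per1 and 3 for Clock. Among these 9 genes an E-box was found in Per1 and Cry1, in 2 of the 13 windows, against 7.15% of all 32851 windows. Of the 9 genes searched, a D-box was found only in Per3, at 2 places in 1 of the 13 windows, against 1.06% of windows. The ROR/REV-ERB element was found only in Arntl, in 1 of the 13 windows, against 0.384%. None of the 13 windows held the cAMP response element, which 1.79% of windows held. The matches outside the sequences above are shown with 9 bases on either side, again with the match in capitals. They lie at chr10:85185100-85185123 (Cry1, minus strand), chr4:151044854-151044879 and chr4:151044807-151044832 (Per3, minus strand) and chr7:113207528-113207556 (Arntl, plus strand, 27 bases into the transcript). The 3 genes past 1.5 times thus differed in these letters, since Per1 held an E-box and the windows of Nr1d1 and Dbp held none of the motifs searched, which says nothing about sites elsewhere in these genes.
Cry1 E-box: gccggtggtCACGTGgggtgcatg
Per3 D-box, farther from the start: acccgcgcgTTATGTAAggtactcgg
Per3 D-box, nearer to the start: cgcccgcggTTATGTAAcccccgccg
Arntl ROR/REV-ERB element: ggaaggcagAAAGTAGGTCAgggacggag

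The activators differed little between the libraries. Arntl, on chromosome 7 (NCBIM37, the build named in the labels, 120350979 to 120457636, plus strand), was covered by 1050 reads in WT (30.6 RPM) against 1213 in Igfbp7-/- (34.6 RPM). Its log2 ratio, computed like all others after adding 0.1 RPM to both values, was 0.18 (interval 0.01 to 0.35). Clock, the gene of its partner and a histone acetyltransferase, lies on chromosome 5 (76639992 to 76733817, minus strand) and was covered by 2686 reads in WT (78.2 RPM) against 2953 in Igfbp7-/- (84.3 RPM). Its log2 ratio of 0.11 (0.00 to 0.22) became -0.03 without the 20 most abundant genes. Both genes thus stood slightly higher in Igfbp7-/- by the deposited RPM, by about 1.1 times, and within the shift that the choice of scaling brings.

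The 3 Per genes, which encode the PERIOD repressors, did not move together. Per1 (chromosome 11, 68908719 to 68923462, plus strand) was covered by 3025 reads in WT (88.1 RPM) against 6253 in Igfbp7-/- (179 RPM), a log2 ratio of 1.02 (0.93 to 1.11) or 2.03 times. Of the 14026 genes, 90.7% had a lower ratio. Per2 (chromosome 1, 93312561 to 93355907, minus strand), whose product is like PER1 a repressor of the loop, was covered by 1043 reads in WT (30.4 RPM). In Igfbp7-/- it was covered by 1070 reads (30.6 RPM), a log2 ratio of 0.01 (-0.17 to 0.19). Per3 (chromosome 4, 150377761 to 150418774, minus strand), which is dispensable for rhythms in mice, was covered by 104 reads in WT (3.03 RPM) against 86 in Igfbp7-/- (2.46 RPM). Its log2 ratio was -0.29 (-0.92 to 0.31). At this depth the interval thus included both no difference and one of 1.5 times downwards. The read ratio of Per1 to Per2 within a library, which does not depend on the library total, was 2.90 in WT and 5.84 in Igfbp7-/-, a log2 change of 1.01 (exact conditional interval 0.81 to 1.21). The summed RPM of the 3 genes was 122 in WT and 212 in Igfbp7-/-, with Per1 as the larger part in both libraries.

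Per1 is also an early response gene, induced through cAMP and by glucocorticoids, so genes of both responses are given beside it. Of 9 immediate early genes, Fosb (290.5 RPM in WT and 693 RPM in Igfbp7-/-), Junb (88.7 and 170.2 RPM) and Egr1 (389 and 730.3 RPM) were higher by at least 1.5 times, and 6 were within that range. The log2 ratios of these 9 genes spanned 0.05 to 1.25, with a median of 0.43. Of all 14026 genes, 21.4% were higher by the same rule. All 4 glucocorticoid-induced genes were higher by at least 1.5 times: Zbtb16, a zinc finger transcription factor, went from 49.3 to 175 RPM, Tsc22d3 from 138 to 215 RPM, Fkbp5, a co-chaperone of the glucocorticoid receptor, from 123 to 191 RPM, and Sgk1, a kinase, from 324 to 499.7 RPM. The log2 ratios of Tsc22d3, Fkbp5 and Sgk1, between 0.62 and 0.64, were lower than that of Per1, and that of Zbtb16, 1.82, was higher. Tsc22d3, Fkbp5 and Sgk1 lay just past 1.5 times (0.585 on this scale), with lower bounds of 0.564, 0.552 and 0.576. Of these 4 genes only Zbtb16 had its whole counting interval beyond 1.5 times, which 11.2% of all genes had. The part of either gene list in the Per1 difference was not tested.

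The cryptochrome genes encode the partners of the PER proteins. Cry1 (chromosome 10, 84594447 to 84647799, minus strand), the stronger repressor, was covered by 906 reads in WT (26.4 RPM) against 984 in Igfbp7-/- (28.1 RPM), a log2 ratio of 0.09 (-0.10 to 0.28) that became -0.05 without the 20 most abundant genes. Cry2 (chromosome 2, 92243803 to 92274200, minus strand) was covered by 744 reads in WT (21.7 RPM) against 580 in Igfbp7-/- (16.6 RPM), a log2 ratio of -0.39 (-0.61 to -0.16). Cry2 was thus lower by more than counting error under the deposited scaling, though by 1.31 times only. In the annotation 295 of its 6320 exonic bases are shared with D930015M05Rik on the opposite strand, whose value was not used here. The read ratio of Cry1 to Cry2 was 1.22 in WT and 1.70 in Igfbp7-/-, a log2 change of 0.48 (0.18 to 0.77).

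The REV-ERB genes stood on opposite sides. Nr1d1 (chromosome 11, 98629246 to 98636647, minus strand) was covered by 3555 reads in WT (104 RPM) against 1281 in Igfbp7-/- (36.6 RPM), 2.83 times lower, with a log2 ratio of -1.50 (-1.63 to -1.37). Only 7.18% of the 14026 genes had a lower ratio. Nr1d2 (chromosome 14, 19036568 to 19071641, minus strand) was covered by 1858 reads in WT (54.1 RPM) against 2343 in Igfbp7-/- (66.9 RPM), a log2 ratio of 0.31 (0.18 to 0.43). The read ratio of Nr1d1 to Nr1d2 was 1.91 in WT and 0.547 in Igfbp7-/-, so that it was 3.50 times lower (log2 change -1.81, interval -1.99 to -1.62). This was the largest of the 4 changes in gene-to-gene ratio, although its interval overlapped that of Dbp to Arntl. In the GENCODE vM1 annotation 263 of the 3124 exonic bases of Nr1d1 are shared with Thra, a thyroid hormone receptor gene on the opposite strand, and the sources used here do not say whether reads were counted by strand. Thra was covered by 883 reads in WT (25.7 RPM) against 793 in Igfbp7-/- (22.6 RPM), a log2 ratio of -0.18 (-0.38 to 0.01).

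Dbp (chromosome 7, 52960458 to 52965525, plus strand) was weakly detected, by 56 reads in WT (1.63 RPM) against 19 in Igfbp7-/- (0.543 RPM). Its log2 ratio was -1.43 after adding 0.1 RPM and -1.59 without it, and the interval of the latter, -2.82 to -0.48, reached from a difference well beyond 1.5 times to one below it. The read ratio of Dbp to Arntl was 0.0533 in WT and 0.0157 in Igfbp7-/-, a log2 change of -1.77 (-2.91 to -0.59). Of its 2945 exonic bases, 491 are shared with Sphk2, a sphingosine kinase gene on the opposite strand, which had more reads than Dbp, 441 in WT and 475 in Igfbp7-/-. Reads of Sphk2 counted to Dbp, if there were any, cannot be told apart in these files. Nr1d1 and Dbp were thus the 2 members that were lower by at least 1.5 times, the first with at least 1281 reads in each library and the second with at most 56.

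**Figure D2:**
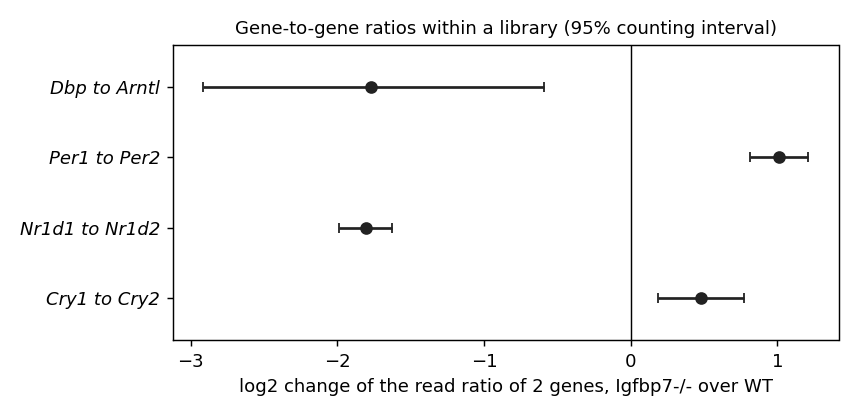
Change in the read ratio of 2 clock genes between the Igfbp7-/- and the WT library (log2, x axis), with exact conditional 95% intervals on read pairs as bars. Nr1d1 stood lower against Nr1d2 (-1.81) and Dbp against Arntl (-1.77), whereas Per1 stood higher against Per2 (1.01) and Cry1 against Cry2 (0.48).

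Levels were compared between genes by the deposited RPKM, that is RPM per kilobase of gene. In WT the highest level was that of Nr1d1 (39.4 RPKM), followed by Per1 (18.9), Nr1d2 (11.7), Arntl (10.5), Clock (10.5), Cry1 (8.70), Cry2 (5.39), Per2 (5.20), Dbp (0.972) and Per3 (0.509). In this order Nr1d2 and Arntl, Arntl and Clock, and Cry2 and Per2 did not differ from each other beyond counting error. In Igfbp7-/- Per1 came first (38.3 RPKM), followed by Nr1d2 (14.4), Nr1d1 (13.9), Arntl (11.9), Clock (11.3), Cry1 (9.26), Per2 (5.23), Cry2 (4.12), Per3 (0.413) and Dbp (0.323). There Nr1d2 and Nr1d1, Arntl and Clock, and Per3 and Dbp did not differ beyond counting error. Nr1d1 thus went from 2.09 times the level of the next gene in WT to the level of Nr1d2 in Igfbp7-/-, while Per1 stood 2.66 times above the next gene there. By RPM rank among all genes, Nr1d1 went from 1310 to 3673 and Per1 from 1598 to 655.

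**Figure D3:**
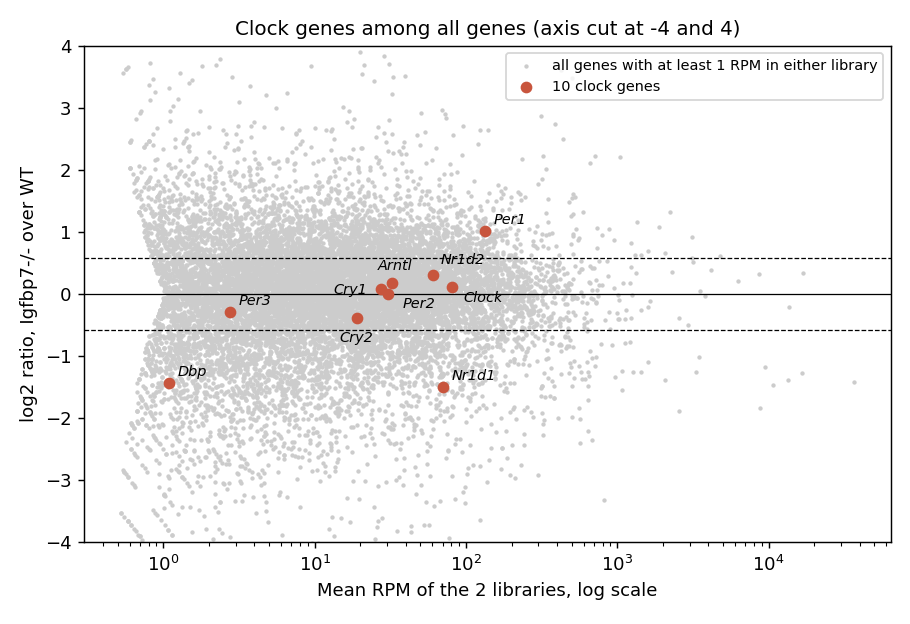
Log2 ratio of Igfbp7-/- to WT (y axis) against mean RPM of both libraries (x axis, log scale) for the 14026 genes that reached 1 RPM (grey) and the 10 clock genes (red). Dashed lines mark 1.5 times. Per1 (1.02), Nr1d1 (-1.50) and Dbp (-1.43) lie outside the lines and the other 7 members between them.

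Of 28 further clock genes, listed by role, 26 had at least 1 RPM in either library, and 11 of these were higher in Igfbp7-/- by at least 1.5 times, 4 were lower and 11 were within that range. The median log2 ratio of the 26 genes was 0.34. Among all genes 21.4% were higher and 23.0% lower, as above. Npas2 and Arntl2, paralogues of Clock and Arntl that can take their place, were both higher by the deposited RPM. Npas2 had 12.0 RPM in WT and 19.0 RPM in Igfbp7-/- (log2 ratio 0.66, 0.405 to 0.92), and was not past 1.5 times without the 20 most abundant genes. Arntl2 had only 3 reads in WT and 46 in Igfbp7-/- (log2 ratio 2.92 after adding 0.1 RPM; the interval, which adds nothing, was 1.66 to 7.78). It reached 1 RPM in Igfbp7-/- only (0.0874 and 1.31 RPM), and was not counted when both libraries had to reach 1 RPM. The ROR receptors activate through the elements that the REV-ERBs repress. Rora was higher, with 14.9 RPM in WT and 25.8 RPM in Igfbp7-/- (log2 ratio 0.79, 0.57 to 1.02), whereas Rorb stayed below 1 RPM in both libraries.

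Both PAR bZIP relatives of Dbp had ratios below 1, as Dbp did. Their competitor Nfil3 and 2 of the 3 E-box repressors had ratios above 1. Tef, a PAR bZIP factor like Dbp, was lower, covered by 497 reads in WT (14.5 RPM) against 148 in Igfbp7-/- (4.23 RPM), a log2 ratio of -1.75 (-2.17 to -1.40). Hlf, the other PAR bZIP gene, had 21.1 and 16.6 RPM (-0.34, -0.57 to -0.12). Nfil3, which competes with these factors for D-boxes, had 70.5 RPM in WT and 97.2 RPM in Igfbp7-/- (0.46, 0.36 to 0.57). Bhlhe40 and Bhlhe41 (DEC1 and DEC2), which repress at E-boxes, were both higher: Bhlhe40 went from 171 to 354 RPM (1.05, 0.99 to 1.11) and Bhlhe41 from 5.65 to 14.1 RPM (1.302, 0.97 to 1.67). Ciart, a repressor of the activators listed under its older symbol Gm129, had 100 reads in WT and 92 in Igfbp7-/-.

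The kinase and ubiquitin ligase genes Csnk1a1, Csnk1d, Csnk1e, Gsk3b, Btrc and Fbxw11, which control PER and CRY turnover, had log2 ratios from -0.23 to 0.53, with Csnk1a1, a casein kinase, as the most abundant (230.1 and 197 RPM). Fbxl21, an F-box gene, stayed below 1 RPM. Among partners and corepressors Sirt1 (38.9 and 82.3 RPM), a deacetylase, Wdr5 (32.7 and 61.5 RPM), a PER-associated histone methyltransferase subunit, and Ncor1 (102 and 158 RPM), the corepressor of the REV-ERBs, were higher. Timeless was lower (8.54 and 3.63 RPM), and Nono, the most abundant in RPM in WT at 105 RPM, and Hdac3, the deacetylase recruited by Ncor1, were within 1.5 times. The rhythmic outputs split. Wee1, a cell cycle kinase gene with E-boxes, went from 82.3 to 232 RPM (1.496, 1.41 to 1.58). Nampt, the rate-limiting enzyme of NAD salvage, went from 194 to 74.6 RPM (-1.38, -1.47 to -1.29) and Usp2, a deubiquitinase, from 18.1 to 10.1 RPM (-0.83, -1.11 to -0.57).

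**Figure D4:**
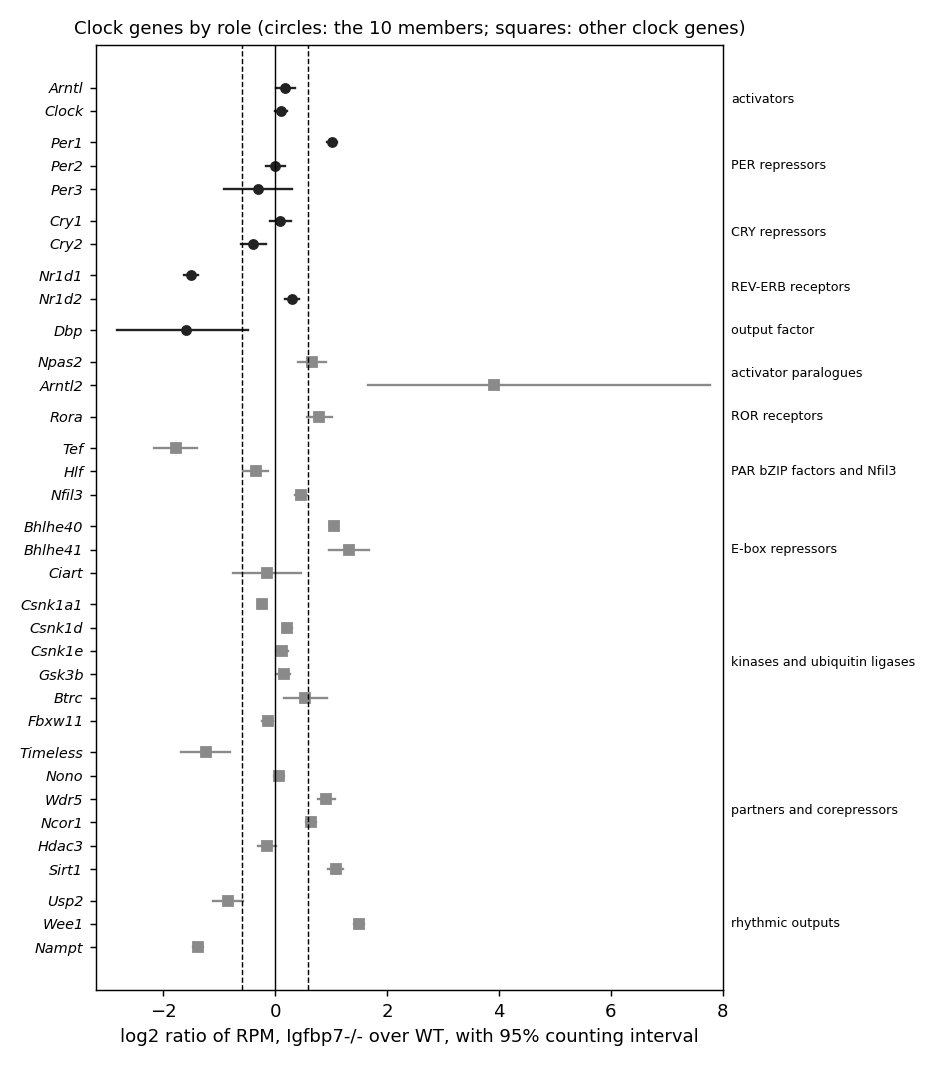
Log2 ratio of RPM, Igfbp7-/- over WT, without an added constant (x axis), for the 10 members (circles) and further clock genes with at least 1 RPM (squares), grouped by role. Bars are 95% counting intervals and dashed lines mark 1.5 times. Within most roles the genes do not share a side, as for Nr1d1 (-1.50) against Nr1d2 (0.31), and Tef (-1.78) against its competitor Nfil3 (0.46).

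Some of the same genes were also set out by the time of day at which their transcripts are known to peak. The others, among them Cry2, Nampt, Bhlhe40, Rora and Arntl2, were placed in neither group. The counts and medians of the groups leave them out. The 5 genes that peak with Arntl (Arntl, Clock, Npas2, Cry1 and Nfil3) had log2 ratios from 0.09 to 0.66, with a median of 0.18, and 1 of them, Npas2, was past 1.5 times. The 12 genes that peak at about the opposite time (Nr1d1, Nr1d2, Dbp, Per1, Per2, Per3, Tef, Hlf, Bhlhe41, Ciart, Usp2 and Wee1) spanned -1.75 to 1.496, with a median of -0.22. Of these 12 genes Nr1d1, Dbp, Tef and Usp2 were lower by at least 1.5 times, Per1, Bhlhe41 and Wee1 were higher, and 5 were within that range, beside 23.0% lower and 21.4% higher among all genes. The genes of the group opposite Arntl thus stood on both sides of 1. The 5 ratios of the group with Arntl were above 1 by the deposited RPM, as were those of 7244 of all 14026 genes. The interval of Cry1 (-0.10 to 0.28 on the log2 scale) included no difference. Without the 20 most abundant genes the log2 ratios of Clock and Cry1 turned to -0.03 and -0.05.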

How the data were processed

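MEC libraries were sequenced as 35 and 75 bp read pairs on a SOLiD instrument. The authors mapped the reads with a Bowtie pipeline (at most 3 mismatches) and removed mitochondrial, ribosomal and small nuclear RNA. The submitters' processing notes list Bowtie 0.12.3, SAMtools 0.1.15 and mm9, whereas the methods name a human build. Annotation, strand setting and multi-mapping reads are not given in the sources used here. The authors deposited whole read counts per gene, RPM (counts scaled to mapped reads, in units of 1000000) and RPKM (RPM per kilobase). RPM therefore falls for all genes when other RNAs take more reads.

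Ratios used the deposited RPM plus 0.1, for genes with at least 1 RPM in either library. Intervals used counts divided by 2, since 75.8% and 74.1% of counts from 1 to 20 were even. Rows without a symbol (50, with 0.0495% and 0.067% of listed reads) were left out. Gene positions came from GENCODE vM1 (NCBIM37). The members and lists were chosen with earlier results of these data known; all members are named, and of the other clock genes those past 1.5 times and the highest in each role, with others added after their values were seen. Of the other clock genes, 2 are counted in the list totals but not reported here. Alternatives were other pseudocounts, minimums, thresholds and scalings, among them TMM (edgeR 4.0.16) and median-of-ratios size factors (DESeq2 1.42.0). The calculations were tested on simulated data. Python 3.11.15, numpy 2.4.6, scipy 1.17.1 and pandas 2.3.3 were used.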

Additional observations from a re-analysis of the deposited data

How the results depend on the processing

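Per1 stayed higher and Nr1d1 lower by at least 1.5 times under all 13 scalings, pseudocounts and minimums run, with log2 ratios of 0.88 to 1.22 and -1.64 to -1.30. Dbp fell below the minimum, and was not counted, with RPKM in place of RPM, when 10 RPM were required in one library, and when both libraries had to reach 1 RPM. The number of members that were lower was then 1 in place of 2. It was also 1 when the whole counting interval had to lie beyond 1.5 times, which that of Dbp did not. In the 10 scalings, pseudocounts and minimums that kept Dbp, its log2 ratio was -1.58 to -0.77. With a threshold of 2 times, 6 of 26 further clock genes were higher in place of 11. The share of all genes past 2 times was not computed. When their whole counting interval had to lie beyond 1.5 times, 8 of the 26 were higher and 3 lower, beside 11.2% and 14.7% of all genes. Npas2, Rora and Ncor1 were then not among the higher ones. The median log2 ratio of the members was 0.24 when RPM was taken per read on listed genes, and 0.25 when ribosomal, small nuclear and small nucleolar RNA was also left out, an alternative chosen after seeing the data; the median of all genes was then 0.22 and 0.235. Without the 20 most abundant genes it was -0.09 and that of all genes was -0.11. Of the 27 further clock genes tested there 8 were higher, beside 2412 of all 14440 genes. The other alternatives left the counts within 1.5 times. The gene-to-gene ratios are the same from RPKM by construction, since gene length and library total cancel. Single reads in place of pairs narrow only their intervals, so neither was a check of these ratios. No replicate could be left out, since each genotype had 1 library, and genes below about 3 RPM, such as Dbp and Per3, were limited by depth.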

Other observations

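The summed RPM of the REV-ERB genes Nr1d1 and Nr1d2 was 158 in WT and 103 in Igfbp7-/-. Nr1d1 made up the larger part of it in WT and Nr1d2 in Igfbp7-/-.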
